A study of Mus musculus with 12 samples.

Results

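Individual mouse embryos whose neural tube had failed to form normally (NTD embryos, for neural tube defect) were compared with pooled control embryos over all annotated genes. The comparison holds 8 of the 12 samples of the series: 4 individual NTD embryos and 4 control pools, each pool mixing equal amounts of RNA from 4 embryos of 4 separate pregnancies. All embryos were of the NOD strain, in which diabetes arises spontaneously through autoimmunity, and all were taken at embryonic day 10.5. Control pools came from normal pregnancies and NTD embryos from diabetic ones, in dams with blood glucose above 250 mg/dL that received 5 units of a gonadotropin to induce estrus. Whether control dams were given the hormone is not stated, nor is the kind or position of each defect or whether NTD embryos were littermates. The defect, maternal diabetes, possibly the hormone, and the use of single embryos against pools therefore cannot be told apart in this comparison. The other 4 samples were pools of 4 embryos from diabetic pregnancies that had the same hormone (diabetic pools). They share pooling with the controls and maternal diabetes with the NTD embryos. Their values are given beside many of the results, but not all. It is not stated how many, if any, of the embryos in these pools had a defect.

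The neural tube forms when the neural plate bends, its edges rise and the folds fuse along the midline, and in the mouse this is complete shortly before the stage sampled here. Maternal diabetes is a known risk factor for failed closure. The embryos were measured whole, so each value is an average over neural tissue, heart, blood, somites, limb buds and other tissues, and fewer cells of a type cannot be told apart from less RNA per cell.

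RNA was hybridised to an Illumina expression BeadChip, on which each probe reads 1 transcript sequence. Per array, 38.3 to 41.9% of 32766 probes gave a detected signal, the lowest share being that of NTD embryo 1, and 7155 named genes were detected on at least 4 of the 8 arrays (detection p under 0.05). Values below are log2 intensities after background correction and quantile scaling, and differences are NTD embryos minus control pools on that scale. NTD embryos varied more among themselves than control pools did: the median SD over genes was 0.160 against 0.101, with 0.127 among diabetic pools. The Y-linked gene Kdm5d was at 8.19, 8.28, 4.60 and 4.42 in control pools 1 to 4 and at 9.18, 9.05, 4.59 and 4.48 in NTD embryos 1 to 4, so that male tissue was seen in 2 of 4 samples of each of these groups. In diabetic pools 1 to 4 it was at 7.97, 7.23, 8.17 and 8.97, so that male tissue was seen in all of them. Distances from the control mean also differed between samples: 34, 27, 58 and 55 genes lay at least 2-fold away in NTD embryos 1 to 4, 22 to 28 in the diabetic pools and 1 or 2 in a control pool set against the other 3.

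Transcripts of 2 genes rose and of 5 fell in NTD embryos at an adjusted p under 0.05 (limma, Benjamini-Hochberg over 7155 genes), which is 0.0280% and 0.0699% of the genes tested, or 0.0978% in all. With median in place of quantile scaling, which moved the median of all genes to -0.11, the split was 1 higher and 17 lower. The genes that rose were Cln3, which encodes a lysosomal membrane protein mutated in juvenile Batten disease, and H2bc4, which encodes a histone H2B. Those that fell were 2 noncoding transcripts, Mir17hg, the host of the microRNA cluster that runs from miR-17 to miR-92a, and 6430411K18Rik, of the imprinted Dlk1-Dio3 region, together with Erich5, which encodes a glutamate-rich protein, Ccno, which encodes the cyclin O needed by multiciliated cells, and Spats2. At an unadjusted p under 0.05, 396 genes were higher (5.53%) and 337 lower (4.71%), and 3733 of 7155 (52.2%) lay above 0.

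Mir17hg, 6430411K18Rik and a further transcript described with them, Dnm3os, are hosts or neighbours of microRNAs, whose mature sequences are shown because their seeds (bases 2 to 8, in capitals) set what they pair with. The array read the host transcripts and not the microRNAs. Those of the miR-17 cluster on chromosome 14 fall into 4 seed groups, with miR-17 and miR-20a sharing one and miR-19a and miR-19b another. In RefSeq (GRCm38.p6) the Mir17hg interval, chr14:115044390-115046728 on the plus strand, holds miR-92a-1 alone, and the other members lie 10 to 684 bases before its start.
mmu-miR-17-5p: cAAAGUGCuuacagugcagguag
mmu-miR-20a-5p: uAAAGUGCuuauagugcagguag
mmu-miR-18a-5p: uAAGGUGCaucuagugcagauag
mmu-miR-19a-3p: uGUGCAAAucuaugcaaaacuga
mmu-miR-19b-3p: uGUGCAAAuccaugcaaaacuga
mmu-miR-92a-3p: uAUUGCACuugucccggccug

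The 6430411K18Rik interval, chr12:109591537-109592851, holds miR-433, and miR-127 begins 37 bases beyond its end. The Dnm3os interval, chr1:162217623-162225550, holds miR-199a-2 and miR-214. Each of these microRNAs has a seed of its own among those shown.
mmu-miR-433-3p: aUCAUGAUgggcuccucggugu
mmu-miR-127-3p: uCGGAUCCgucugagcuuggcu
mmu-miR-199a-5p: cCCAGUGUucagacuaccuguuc
mmu-miR-214-3p: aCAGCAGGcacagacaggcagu

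For 6430411K18Rik, a noncoding transcript made from the maternal chromosome, control pools 1 to 4 had values of 6.30, 6.34, 6.30 and 6.26 and NTD embryos 1 to 4 of 5.27, 5.25, 5.20 and 5.34. The lowest control pool lay well above the highest NTD embryo, and samples within each group were almost level. The difference was -1.04 ± 0.07 (SE, n = 4 per group; limma adjusted p = 1.2e-04), or 2.05-fold. It was the only gene called under all 22 alternatives of processing and sample choice. Diabetic pools had 4.88, 5.07, 5.27 and 5.09, all below the controls, but only 2 of these 4 arrays detected the transcript, so no difference from the NTD embryos is given.

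For Mir17hg, control pools 1 to 4 were at 11.32, 11.50, 11.30 and 11.51, and NTD embryos 1 to 4 at 10.47, 9.64, 9.53 and 9.89. The cluster it hosts promotes cell proliferation and survival. The transcript fell by 1.52 on the log2 scale (SE 0.18; limma adjusted p = 0.0142, n = 4 per group), with NTD embryo 1 nearest to the controls. In the diabetic pools the values were 9.40 to 10.01, overlapping those of the NTD embryos.

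Of 14 microRNA host transcripts listed, 5 were tested, all 5 lay below 0 and their median was -0.40, against 0.01 over all genes. Mir99ahg, the host of miR-99a and let-7c, differed by -0.80 ± 0.13 (SE; limma adjusted p = 0.063) and fell once NTD embryo 4 was left out (limma adjusted p = 0.0344). This probe was detected in 3 of 4 NTD embryos, and the transcript's other probe differed by -0.12 (limma, unadjusted p = 0.482). Removal of NTD embryo 4 gave the most calls of any sample, so the Mir99ahg call without it was chosen on its outcome. For Dnm3os, antisense to Dnm3 and named after its values were seen, control pools had 8.68 to 8.99. NTD embryo 1 lay at their level with 8.63, whereas NTD embryos 2, 3 and 4 had 7.48, 7.27 and 7.01. Its difference was -1.20 ± 0.28 (SE, n = 4 per group; limma adjusted p = 0.147). A dimmer second probe differed by -0.31. The diabetic pools had 7.42 to 7.75.

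**Figure D1:**
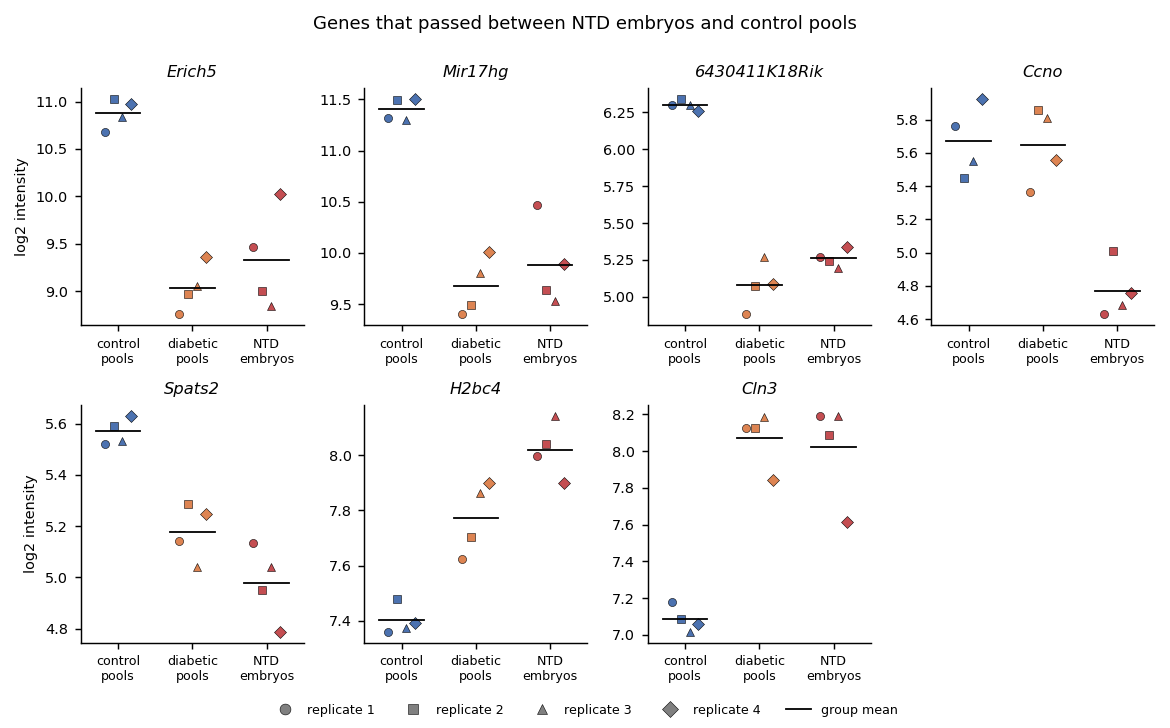
Log2 intensity of the 7 genes that passed between NTD embryos and control pools (adjusted p under 0.05), 1 panel per gene, with 1 point per sample, the symbol giving its replicate number, and lines at the mean of each group. The diabetic pools lie with the NTD embryos for Erich5, Mir17hg, 6430411K18Rik and Cln3, but with the control pools for Ccno.

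For Erich5, control pools 1 to 4 were at 10.67, 11.03, 10.84 and 10.97, and NTD embryos 1 to 4 at 9.47, 9.0, 8.84 and 10.02. NTD embryo 4 was nearest to the controls, and the groups did not overlap. Its difference, -1.55 ± 0.22 (SE, n = 4 per group; limma adjusted p = 0.0301), was the greatest among the 7 genes, and was -1.78 without NTD embryo 4. Diabetic pools had 8.75 to 9.36.

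For Cln3 the control pools had 7.18, 7.09, 7.02 and 7.06, and NTD embryos 1 to 4 had 8.19, 8.09, 8.19 and 7.62. NTD embryo 4 was again the one nearest to the controls. Cln3 rose by 0.93 ± 0.12 (SE, n = 4 per group; limma adjusted p = 0.0217). The diabetic pools, at 7.84 to 8.19, spanned nearly the same values. Of 14 tested genes for lysosomal enzymes, membrane proteins and other ceroid lipofuscinosis proteins, Cln3 was the only one with an unadjusted p under 0.05, and the list's median was -0.01.

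Ccno was the gene among the 7 whose diabetic pools resembled the controls. Control pools had 5.76, 5.45, 5.55 and 5.93 and diabetic pools 5.36, 5.86, 5.81 and 5.56, all detected. NTD embryos 1 to 4 had 4.63, 5.01, 4.69 and 4.76 and were undetected on all 4 arrays, so only a bound holds: Ccno was at least 1.43-fold lower than in control pools (limma adjusted p = 0.0217). The NTD embryos lay below every pool of either kind, but the comparison with diabetic pools did not pass over all genes (limma adjusted p = 0.214). The bound is the group mean over the lowest signal of a detected probe on the arrays of the dim group. Ccno passed the detection filter through the control pools alone, where it was higher, so its adjusted p is not independent of the filter. Of 6 tested genes of the multiciliated cell programme, Ccno alone had an unadjusted p under 0.05.

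Spats2 had 5.52, 5.59, 5.53 and 5.63 in control pools and 5.13, 4.95, 5.04 and 4.79 in NTD embryos, where it was undetected on all 4 arrays. It was at least 1.33-fold lower (limma adjusted p = 0.0345). Like Ccno, Spats2 passed the detection filter through the control pools alone, so its adjusted p is not independent of the filter. Diabetic pools had 5.04 to 5.29, between the other groups, with 3 of 4 detected.

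Of these 7 calls, that of 6430411K18Rik held without any 1 sample. Each of the other 6 was lost without control pool 2, 3 or 4 or without NTD embryo 3. All of the 6 but Mir17hg were also lost without control pool 1, and Cln3, Erich5 and Spats2 also without NTD embryo 2. The highest adjusted p in these repeats was 0.0925 for Mir17hg, 0.101 for H2bc4 and for Ccno, 0.138 for Cln3, 0.169 for Erich5 and 0.207 for Spats2. Conversely, 11 genes were higher and 39 lower without NTD embryo 4, and 7 higher and 22 lower without NTD embryo 1. The 7 genes were among those called in both repeats.

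**Figure D2:**
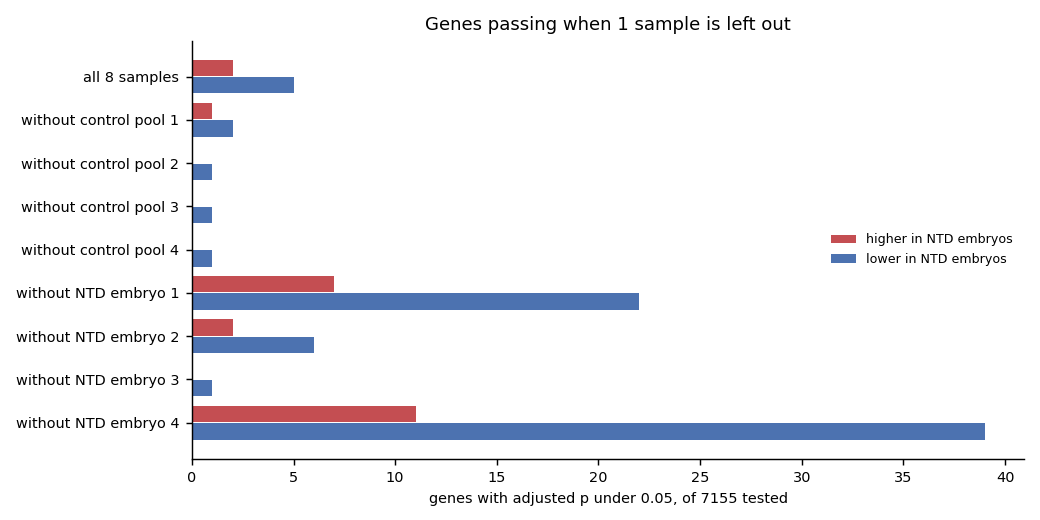
Number of genes with an adjusted p under 0.05 of 7155 tested (horizontal axis) with all 8 samples and with each sample left out in turn, split into genes higher and lower in NTD embryos. Leaving out NTD embryo 4 gave 11 higher and 39 lower, and leaving out control pool 2, 3 or 4 or NTD embryo 3 gave 0 higher and 1 lower.

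Genes of replication-dependent histones, whose messages are made in S phase and end in a stem-loop in place of a poly(A) tail, made up 14 of the 19 genes that were at least 2-fold lower in NTD embryos (0.266% of those tested). The differences of these 14 were -1.67 to -1.02, and no gene was 2-fold or more higher. Of 63 such histone genes listed, 47 were tested. With all samples H2bc4 was the only one called. At an unadjusted p under 0.05, 29 were lower and 2 higher, beside 4.71% and 5.53% of all genes, and the family's median was -0.49. The family lay below 0 in 41 of 47 genes, and its median was -0.51 relative to all genes under median scaling.

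H2bc11, an H2B gene, had 10.51, 10.63, 10.61 and 10.48 in control pools and 8.23, 8.90, 8.27 and 10.16 in NTD embryos 1 to 4. NTD embryos 1 to 3 were far below the controls and NTD embryo 4 close to them. Its difference was -1.67 ± 0.35 (SE, n = 4 per group; limma adjusted p = 0.133) with all samples, and it fell by 2.09 (SE 0.15; limma adjusted p = 3.5e-05) without NTD embryo 4. The diabetic pools had 8.43 to 8.98. NTD embryo 4 was the sample whose removal gave the most calls, so histone calls made without it were chosen on their outcome.

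H4c12, an H4 gene, had 7.96, 7.92, 7.89 and 7.82 in control pools and 5.73, 6.26, 5.74 and 7.59 in NTD embryos. NTD embryo 4 again stood with the controls. The difference was -1.57 ± 0.34 (SE; limma adjusted p = 0.133), and it was -1.99 without NTD embryo 4 (limma adjusted p = 2.9e-05). The H2B genes H2bc7, H2bc6, H2bc9 and H2bc15 and the H4 gene H4c18 had differences of -1.53, -1.51, -1.49, -1.37 and -1.37 with NTD embryo 4 the highest of the 4 embryos for each, and limma adjusted p of 0.133 to 0.146. H2bc18 was undetected in NTD embryos 1 to 3, at 4.45, 4.87 and 4.52, and in all diabetic pools. It was at 6.46 in NTD embryo 4 and at 6.33 to 6.70 in control pools. Of 22 alternatives, H2bc11, H2bc6, H2bc15, H4c12 and H4c18 were each called in 3, and H2bc7 and H2bc9 in 2. H2bc18 was called in 2 of 21.

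Without NTD embryo 4, 26 of the 47 histone genes fell and 1, H2bc4, rose, where 39 (0.545%) and 11 (0.154%) of all genes did. The family's median was then -0.62. These calls were chosen on their outcome, since leaving out NTD embryo 4 was the removal that gave the most calls. The mean of the 47 genes relative to the control mean was -0.85 for NTD embryo 1, -0.64 for NTD embryo 2, -0.80 for NTD embryo 3 and -0.07 for NTD embryo 4. Diabetic pools lay between -0.82 and -0.57 on this measure and control pools between -0.03 and 0.03. NTD embryo 4 thus stood apart from the other 7 samples of diabetic pregnancies in this family. It also had the lowest array weight of the 8 samples, 0.451, against 0.496 to 2.16. The part of array quality in this was not tested.

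The classes were unequal. At an unadjusted p under 0.05, 10 of 12 H2B, 9 of 10 H4, 5 of 9 H3, 2 of 3 H1 and 3 of 13 H2A genes were lower, with class medians of -1.21, -1.11, -0.26, -0.68 and -0.04. Of the 16 genes that missed this level, 13 lay above the 95th percentile of intensity over all genes, 10 of them H2A. Copies of these genes share sequence, so that a probe may read several of them.

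**Figure D3:**
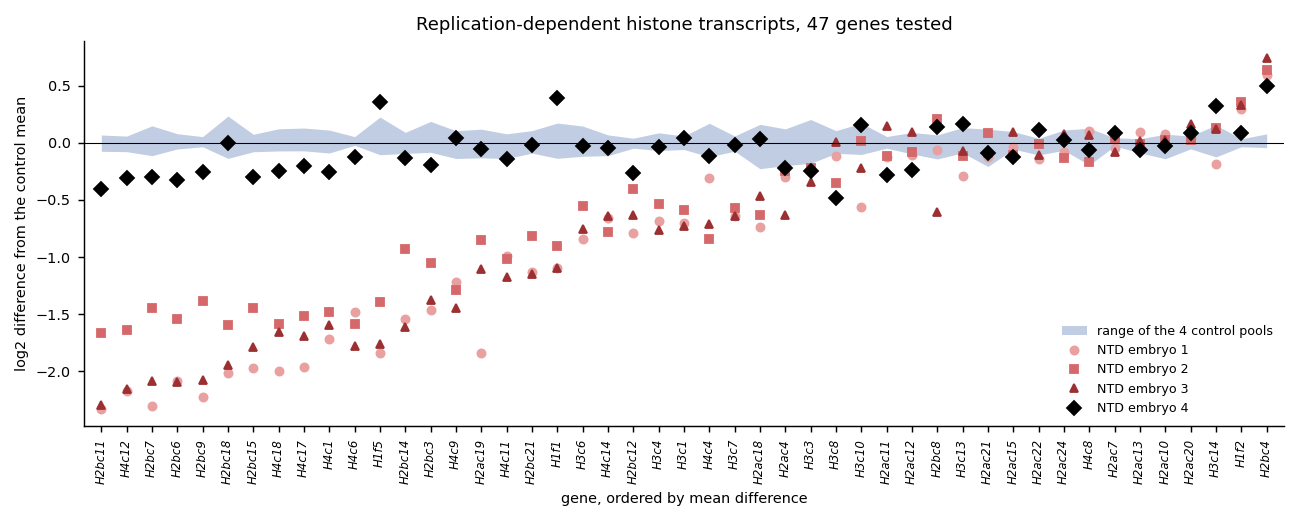
Log2 difference from the control mean of each of the 47 replication-dependent histone genes tested, ordered by mean difference. Points are the 4 NTD embryos and the band is the range of the 4 control pools. NTD embryos 1 to 3 lie near -2 for the genes at the left, and NTD embryo 4 (black diamonds) stays above -0.5 throughout.

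H2bc4 went the other way: control pools had 7.36, 7.48, 7.38 and 7.39 and NTD embryos 8.00, 8.04, 8.14 and 7.90. All 4 NTD embryos, NTD embryo 4 included, lay above all control pools, and the gene rose by 0.62 ± 0.08 (SE, n = 4 per group; limma adjusted p = 0.0185). Diabetic pools had 7.62 to 7.90. H1f2, a linker histone gene, was higher by 0.27 ± 0.08 (SE, n = 4 per group; limma adjusted p = 0.263).

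Lists of other cell cycle and histone genes held no such differences. At an unadjusted p under 0.05, 0 of 18 S-phase and DNA replication genes, 0 of 11 mitosis genes, 0 of 10 replacement histone genes, which are made outside S phase and carry poly(A) tails, and 0 of 11 genes for histone transcript processing differed in limma. Their medians were -0.03, 0.05, 0.01 and 0.01. A dimmer probe of Npat, a gene of these lists, differed by -0.38 ± 0.10 (SE; limma, unadjusted p = 0.00422) and did not enter the counts.

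Of the 47 histone genes, 38 lie on chromosome 13 and 9 on chromosome 3. Promoters of 3 that fell without NTD embryo 4 are shown (RefSeq, GRCm38.p6, from 250 bases before to 50 after the annotated start), since they moved together. Capitals mark 3 motifs, each searched on both strands: the CCAAT box (on the other strand read as ATTGG), the TATA box TATAAA (on the other strand read as TTTATA) and the octamer ATTTGCAT (on the other strand read as ATGCAAAT). H2bc11 (chr13:22042948-22043247, plus strand) holds 5 CCAAT, H2bc6 (chr13:23585921-23586220, minus strand, at 1 of its 2 annotated starts) holds 3 CCAAT and an octamer, and H4c12 (chr13:21750504-21750803, minus strand) holds TATAAA and no CCAAT.
H2bc11: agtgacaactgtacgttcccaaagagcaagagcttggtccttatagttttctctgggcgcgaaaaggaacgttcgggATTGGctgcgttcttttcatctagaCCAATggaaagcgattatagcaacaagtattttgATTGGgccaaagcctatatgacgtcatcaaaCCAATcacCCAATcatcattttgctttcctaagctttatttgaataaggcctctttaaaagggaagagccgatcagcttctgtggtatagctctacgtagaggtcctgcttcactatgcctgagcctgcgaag
H2bc6: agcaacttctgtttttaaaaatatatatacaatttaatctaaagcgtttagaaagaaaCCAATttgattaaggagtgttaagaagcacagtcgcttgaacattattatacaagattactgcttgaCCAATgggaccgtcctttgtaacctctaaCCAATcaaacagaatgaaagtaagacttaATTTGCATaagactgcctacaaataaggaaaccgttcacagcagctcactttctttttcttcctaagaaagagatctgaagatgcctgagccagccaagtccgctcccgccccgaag
H4c12: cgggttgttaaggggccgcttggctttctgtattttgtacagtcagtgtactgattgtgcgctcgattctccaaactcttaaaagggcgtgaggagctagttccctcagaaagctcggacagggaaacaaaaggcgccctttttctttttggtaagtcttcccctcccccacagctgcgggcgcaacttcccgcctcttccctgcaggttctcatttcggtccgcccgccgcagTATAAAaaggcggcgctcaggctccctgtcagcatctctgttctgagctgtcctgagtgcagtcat

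A promoter entry was matched for 42 of the 47 genes. CCAAT was found in 35 of them, among these 10 of 10 H2B, 13 of 13 H2A and 2 of 9 H4 genes, and in 37.4% of all 32851 promoters of the same length. TATAAA was found in 25 of 42, with 8 of 9 H4 genes, and in 13.6% of all promoters. The octamer was found in 9 of 42, with 6 of 10 H2B genes, and in 1.74% of all. A histone gene was counted if any of its promoter entries held the motif, whereas the 32851 promoters were counted entry by entry. Whether these motifs bear on the differences was not tested.

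Beyond the 7 called genes, those with the largest rises whose groups did not overlap (3.47% of all genes) are given as values, since none passed. The largest falls of non-overlapping groups (2.89% of all genes), picked in the same way, were histone genes, whose values are given above. Ier3, an immediate early gene, had 6.93 to 7.26 in control pools and 7.32 to 8.61 in NTD embryos (difference 0.79 ± 0.23, limma adjusted p = 0.263). Nprl3, which encodes a subunit of an inhibitor of mTORC1, differed by 0.77 ± 0.18 and Mzt1, of the gamma-tubulin complex, by 0.72 ± 0.22. A dimmer probe of Nprl3 differed by 0.095 (limma, unadjusted p = 0.488). Mgarp, a mitochondrial protein gene, differed by 0.68 ± 0.18, Dera, a deoxyribose phosphate aldolase gene, by 0.65 ± 0.13, and Csf2ra, for a subunit of the receptor of granulocyte-macrophage colony-stimulating factor, by 0.62 ± 0.11 (limma adjusted p = 0.108). Aldoc, Hoxd12, Bhlhe40 and Nrp differed by 0.60, 0.59, 0.58 and 0.56. The adjusted p of these 10 genes ranged from 0.108 to 0.281. The corresponding differences between NTD embryos and diabetic pools were -0.07 to 0.28 for the 10 genes.

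Without NTD embryo 4, Csf2ra rose by 0.68 (limma adjusted p = 0.0256), Shroom1, an actin-binding protein gene, by 0.58 (0.0154), and Fbxo36, an F-box protein gene, by 0.50 (0.0378). With all samples their limma adjusted p was 0.108, 0.126 and 0.158. NTD embryo 4 was the sample whose removal gave the most calls, so calls made without it were chosen on their outcome. Gm5797, Gm5796 and Gm3696 on chromosome 14, genes known by locus names alone, rose by 1.16, 0.85 and 0.82 without NTD embryo 4. With all samples their limma adjusted p was 0.467, 0.775 and 0.565, and each was called in 1 of 22 alternatives. For Gm5796, control pools had 9.88 to 10.20, NTD embryos 1 to 3 had 11.21, 10.63 and 10.89, and NTD embryo 4 had 9.13, below every other sample. Its diabetic pools had 10.59 to 10.82. The 3 genes ran alike over the embryos, and probes for near-identical copies may read each other's transcripts.

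Gene groups of tissues and pathways are described by their counts at an unadjusted p under 0.05 and by their medians, since none of the genes in the following groups passed over all genes. At that level 5.53% of all genes were higher and 4.71% lower, and without NTD embryo 4 7.38% and 5.86%. With any 1 of the 8 samples left out, the shares were 4.04 to 7.38% and 3.27 to 6.69%.

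Cardiac muscle genes were mostly higher: of 18 tested, 13 were higher and 0 lower, beside 5.53% and 4.71% of all genes, and 17 lay above 0. The median was 0.31, and 0.24 against diabetic pools. Without NTD embryo 3 the 13 became 8, with a median of 0.21. Myh6, the alpha myosin heavy chain gene, had 9.59, 9.61, 9.74 and 9.72 in control pools and 9.94, 10.31, 10.33 and 10.26 in NTD embryos (0.54 ± 0.10, limma adjusted p = 0.11), and its other probe differed by 0.38 ± 0.22. Nppb, a natriuretic peptide gene, differed by 0.51 ± 0.12, Mybphl, a myosin-binding protein gene, by 0.40 ± 0.10, and Hspb7, a small heat shock protein gene of heart muscle, by 0.35 ± 0.08. The groups did not overlap for these 4 genes. The list's mean was 0.11 above control for NTD embryo 1, 0.25 for NTD embryo 2, 0.55 for NTD embryo 3 and 0.32 for NTD embryo 4, against -0.01 to 0.11 in the diabetic pools. NTD embryo 1 was thus level with the highest diabetic pool, and NTD embryo 3 was highest.

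Hox genes, which set position along the body axis, had a median of 0.21 over 30 tested, with 10 higher and 0 lower at an unadjusted p under 0.05 (5.53% and 4.71% of all genes). Hoxd12 had 6.14 to 6.78 in control pools and 6.94 to 7.23 in NTD embryos. Hoxa9 had 6.60 to 6.71 and 6.89 to 7.15, a difference of 0.37 ± 0.08 (limma adjusted p = 0.133). Hoxc10 differed by 0.50 ± 0.13 and Hoxc9 by 0.46 ± 0.13. The list's mean was 0.16, 0.19, 0.10 and 0.45 in NTD embryos 1 to 4 and 0.16 to 0.24 in diabetic pools. Without NTD embryo 4 its median was 0.12. Under median scaling with all samples, the median was 0.18 above that of all genes. With that scaling and without NTD embryo 4, it was -0.02, against -0.11 for all genes.

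Erythroid genes were lower in 3 of the 4 NTD embryos: set against the control mean, the list was at -0.38, 0.05, -1.0 and -0.61 for NTD embryos 1 to 4, beside -0.20 to 0.16 in control pools and -0.36 to -0.01 in diabetic pools. Of 16 tested, 0 were higher and 7 lower at an unadjusted p under 0.05, beside 5.53% and 4.71% of all genes, 16 lay below 0, and the median was -0.43. The 7 became 3 without control pool 4 or NTD embryo 3, 4 without control pool 3 or NTD embryo 4, and 13 without NTD embryo 2. Without NTD embryo 3 the median was -0.26. Ermap, a red cell membrane protein gene, had 7.85, 7.87, 8.23 and 7.99 in control pools and 7.52, 7.49, 6.55 and 6.71 in NTD embryos (-0.92 ± 0.21, limma adjusted p = 0.147). Add2, which encodes the beta adducin of the red cell skeleton, differed by -0.56 ± 0.13. Of the embryonic globin genes, near the top of the intensity range, Hbb-y, Hbb-bh1 and Hba-x differed by -0.04, -0.10 and -0.32. Hba-x was at 14.21 to 14.40 in control pools and at 14.18, 14.24, 13.70 and 13.77 in NTD embryos 1 to 4.

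All 6 forebrain genes tested lay below 0, and 4 had an unadjusted p under 0.05, beside 4.71% of all genes lower. The 4 became 2 without control pool 1, NTD embryo 1 or NTD embryo 4. Dlx1 and Dlx2, homeobox genes of the ventral forebrain and branchial arches, differed by -0.29 ± 0.09 and -0.23 ± 0.09, with no overlap between groups, and Lhx2, a homeobox gene of the forebrain and eye, by -0.43 ± 0.17. A dimmer probe of Dlx2 differed by -0.12 with overlapping groups (limma, unadjusted p = 0.329). The median was -0.43 with all samples and -0.22 without NTD embryo 4. The list's mean was -1.28 in NTD embryo 4, against -0.21, -0.31 and -0.03 in NTD embryos 1 to 3. In diabetic pools this mean was -0.24 to -0.10, and in control pools -0.09 to 0.13. The list's median difference from diabetic pools was -0.23.

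Genes of neuronal differentiation had a median of -0.23 over 20 tested, with list means of -0.11, -0.32, -0.49 and 0.29 for NTD embryos 1 to 4. Dcx, which encodes the microtubule protein doublecortin, had 7.68 to 8.00 in control pools and 7.60, 7.32, 6.76 and 7.78 in NTD embryos 1 to 4. At an unadjusted p under 0.05, 2 genes were lower and 1 higher with all samples (4.71% and 5.53% of all genes), and 12 were lower and 0 higher without NTD embryo 4 (5.86% and 7.38% of all genes). Without NTD embryo 1, 5 were lower, and without control pool 2 or 3 or NTD embryo 2, 1 was. The neuronal and forebrain lists thus ran in opposite directions in NTD embryo 4.

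Among 33 tested genes whose loss is known to cause neural tube defects in mice, 0 were higher and 2 lower at an unadjusted p under 0.05 (5.53% and 4.71% of all genes), and their median was -0.03. Without NTD embryo 4, 4 were lower and the median was -0.09. Leaving out control pool 1 gave 1 lower, and leaving out NTD embryo 1 or control pool 3 gave 3. Enah, an actin regulator, had 7.46 to 7.93 in control pools, 7.56 in NTD embryo 1 and 6.72, 7.02 and 6.56 in NTD embryos 2 to 4 (-0.65 ± 0.20, limma adjusted p = 0.268). Its other probes differed by -0.0018 and -0.12. Lrp6, a Wnt co-receptor, differed by -0.21 ± 0.07 with no overlap. Its dimmer probe differed by -0.098 with overlapping groups (limma, unadjusted p = 0.459).

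Of 21 Wnt pathway genes, 4 were lower and 0 higher at an unadjusted p under 0.05, beside 4.71% and 5.53% of all genes, and the list's median was -0.05. Without control pool 1, 2 were lower. Axin2, a feedback inhibitor that Wnt signalling switches on, had 9.94 to 10.11 in control pools and 9.62 to 9.79 in NTD embryos (-0.33 ± 0.08, limma adjusted p = 0.15). Fzd5 and Fzd8, genes of Wnt receptors, differed by -0.65 ± 0.18 and -0.23 ± 0.09. Against diabetic pools the difference of Axin2 was -0.04.

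Extracellular matrix genes had a median of -0.12 over 33 tested, with 8 lower and 1 higher at an unadjusted p under 0.05 (4.71% and 5.53% of all genes). The 8 became 5 without control pool 3 or 4 or NTD embryo 4. Lox, which encodes the enzyme that crosslinks collagen, had 7.02 to 7.14 in control pools and 6.43 to 6.87 in NTD embryos (-0.48 ± 0.10, limma adjusted p = 0.133). Col9a3, a collagen gene of the notochord and early cartilage, was the member that was higher, by 0.44 ± 0.09. Cholesterol synthesis genes lay above 0 in 11 of 11 tested, with a median of 0.18 and 4 higher at an unadjusted p under 0.05, among them Idi1, an isomerase gene of the pathway (0.50 ± 0.13). Without control pool 1 or 3, 2 of them were higher. Under median scaling 10 of 11 lay above 0. The cholesterol list's mean was 0.10 to 0.23 in diabetic pools and 0.12 to 0.29 in NTD embryos. Its median difference from diabetic pools was 0.03.

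Genes of glycolysis and the hypoxia response had a median of 0.22 over 15 tested, with 6 higher and 0 lower at an unadjusted p under 0.05, beside 5.53% and 4.71% of all genes. Aldoc, an aldolase gene, had 6.35 to 6.55 in control pools and 6.68, 6.88, 7.69 and 6.81 in NTD embryos. Egln3, a prolyl hydroxylase gene induced by low oxygen, differed by 0.40 ± 0.11. The list's mean was highest in NTD embryo 3 (0.48) and within the control range in NTD embryo 1 (0.04). In diabetic pools this mean was 0.06 to 0.26, and the list's median difference from them was 0.11. The 6 became 4 without control pool 1 or 4, and 7 without NTD embryo 1 or 4. Of 22 genes of oxidative phosphorylation, 0 differed at an unadjusted p under 0.05 in limma.

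Hspa1a, an inducible chaperone gene, had 6.40 to 6.76 in control pools and 4.81, 5.63, 4.44 and 6.03 in NTD embryos (-1.32 ± 0.29, limma adjusted p = 0.143), with NTD embryos 1 and 3 undetected, while the median of 19 heat shock genes was -0.02. Dct, a pigment cell gene of the neural crest, had 6.28 to 6.74 in control pools and 6.01, 5.86, 5.09 and 5.76 in NTD embryos, of which 3 of 4 were detected (-0.85 ± 0.18, limma adjusted p = 0.133). The groups did not overlap for either gene. Of 5 neural crest genes tested, 2 were lower and 0 higher at an unadjusted p under 0.05 (4.71% and 5.53% of all genes). The median of these 5 was -0.04. Macrophage genes had a median of -0.27 over 10 tested, and 0 had an unadjusted p under 0.05 in limma. Without NTD embryo 2, whose list mean was 0.47 above the controls, 9 were lower at that level and the median was -0.48.

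**Figure D4:**
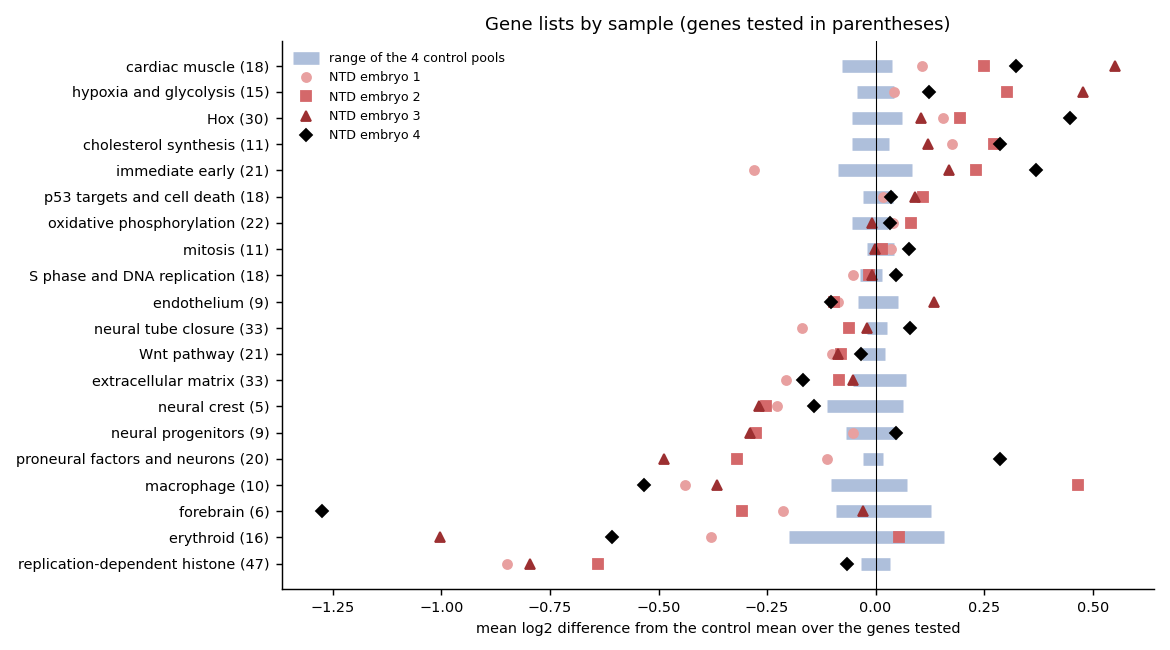
Mean log2 difference from the control mean over the genes tested of 20 gene lists, with the number of genes in parentheses. Points are the 4 NTD embryos and bars the range of the 4 control pools. NTD embryo 4 is at -0.07 for histones and -1.28 for forebrain genes, and NTD embryo 3 at -1.0 for erythroid genes.

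Some genes were set apart in a single NTD embryo, and are given as values with no test. In NTD embryo 4, Nkx2-1, a homeobox gene of the ventral forebrain, thyroid and lung, was undetected at 4.79, against 7.79 to 8.45 in the 7 other samples of the comparison and 7.5 to 8.13 in diabetic pools. Fezf1, a transcription factor gene of the anterior forebrain, was at 6.45 there against 7.73 to 8.56. The same embryo had the highest Fgfbp3 (9.53 against 7.75 to 7.93), a gene for a protein that binds fibroblast growth factors, Hoxb9 (8.09 against 6.16 to 6.76) and Nkx6-1 (8.5 against 6.83 to 7.42), a homeobox gene of the ventral spinal cord and hindbrain. A further probe of Fgfbp3 was also highest there, at 6.43 against 4.82 to 5.29. Forebrain genes were thus low and a posterior Hox gene high in this embryo. It lay more than 1 log2 unit above all 7 others for 5 genes and below them for 3, against 0 or 1 and 0 to 3 for the other embryos.

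In NTD embryo 3, the adult-type beta globin genes Hbb-bt and Hbb-bs had 9.19 and 9.43 against 10.61 to 12.05 and 10.77 to 12.20 in the other samples of the comparison. Chac1, a glutathione-degrading enzyme gene induced by amino acid stress, was at 7.65 there against 5.75 to 6.31, and Eno2, an enolase gene, at 7.96 against 6.22 to 7.07. A transcript known by its clone name, 3830406C13Rik, was undetected at 4.82, against 7.19 to 8.03, and was low in this embryo in its other probes too, at 5.02 and 4.47. In NTD embryo 1, the immediate early gene Fos was at 6.17 against 7.70 to 9.31. In NTD embryo 2, the macrophage genes F13a1 (6.89 against 5.18 to 6.14) and Ly86 (6.18 against 4.93 to 5.54) and the platelet factor gene Pf4 (10.12 against 8.86 to 9.46) were highest. Genes were picked in each embryo by its gap to the other samples, so every embryo was bound to have some. No such search was made among the pools, whose values are means over 4 embryos.

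**Figure D5:**
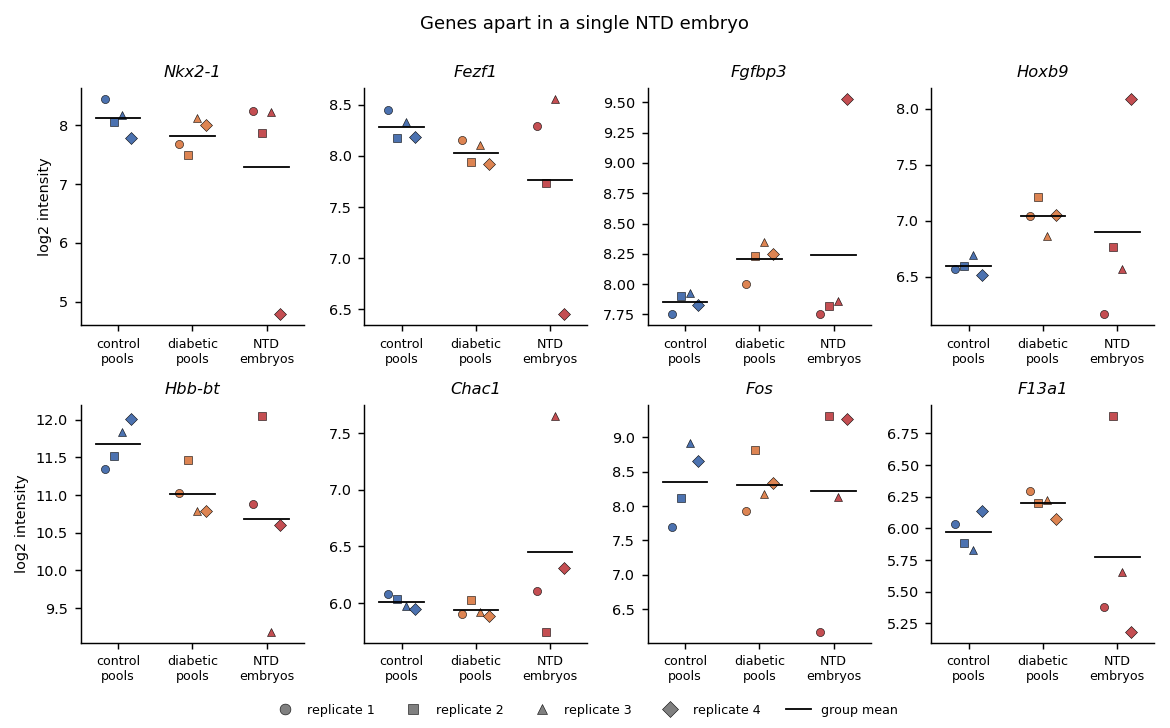
Log2 intensity of 8 genes that were apart in 1 NTD embryo, with 1 point per sample, symbols for the replicate number and lines at group means. Nkx2-1 and Fezf1 are low and Fgfbp3 and Hoxb9 high in NTD embryo 4, Hbb-bt is low and Chac1 high in NTD embryo 3, Fos is low in NTD embryo 1 and F13a1 high in NTD embryo 2.

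Set against the diabetic pools on the same 7155 genes, 0 genes differed in NTD embryos at an adjusted p under 0.05 in limma, and 121 were higher (1.69%) and 87 lower (1.22%) at an unadjusted p under 0.05. For Cln3, H2bc4, Erich5 and Mir17hg, the 4 called genes detected on all 12 arrays, the difference from diabetic pools was -0.05 to 0.30, against -1.55 to 0.93 from control pools. Both comparisons share the NTD embryos. Of the 47 histone genes, 2 were higher and 0 lower than in diabetic pools at that level, with a median of 0.07, and of 18 cardiac genes 9 were higher and 0 lower.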

How the data were processed

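Embryo RNA (200 ng per sample) was labelled with biotin and hybridised, per the labels' protocols; the submitters' processing notes name GenomeStudio. The authors deposited, per the file headers, an average intensity per probe, without background correction or scaling, with its detection p-value; the standard error and bead count per probe, deposited beside it, described the arrays only. The series' value table, deposited as intensities normalized by a method not given in the sources used here, was an alternative setting (values under 1 raised to 1).

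limma 3.58.1 in R 4.3.3 (neqc, offset 16, negative controls inferred from detection p-values, all 12 arrays together) gave log2 values. Of 32766 probes, 23340 had 1 gene in the platform annotation, 13 several and 9413 were not listed there; symbols of 23267 were updated through Entrez identifiers. Probes detected (p under 0.05) on at least 4 of the 8 arrays left 10915, and the one with the highest mean stood for each of 7155 genes. Groups were taken from sample titles and compared with lmFit and eBayes, two-sided, without covariates, with Benjamini-Hochberg adjustment; a second fit set NTD embryos against diabetic pools on the same genes. The SE comes from these fits. The labels name separate pregnancies for each pool but not for the NTD embryos, so p-values measure the spread between these samples. With 4 arrays per group, their number limits the precision.

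Named genes were all called genes, filled to 12 per direction with the largest differences of non-overlapping groups at an unadjusted p under 0.01; the 8 largest per direction called without NTD embryo 4, the removal with most calls; no more than 5 members of a list, by p; 3 per direction apart in each NTD embryo; and Kdm5d. Dnm3os, Mir99ahg, the Gm genes, H1f2 and 3830406C13Rik were named after their values were seen. The comparison and the 41 gene lists were chosen with earlier results of these data known. MicroRNA and promoter sequences are RefSeq's (GRCm38.p6). Of 2482 detected probes not listed in the annotation, 0 passed in limma (137 higher and 139 lower at an unadjusted p under 0.05). The fit was tested on simulated data. Alternatives changed scaling, background, offset, filter, probe choice, samples and variance model.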

Additional observations from a re-analysis of the deposited data

Results flagged for a closer look

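A sample stood apart from the other 3 of its group, by its gap to the nearest divided by the group's range (above Dixon's critical value), in 10 of 186 groups examined; chance gives about 1 in 20. Among the genes, the ratio was 0.939 for Fgfbp3 (NTD embryo 4 highest), 0.890 for Nkx2-1 (NTD embryo 4 lowest), 0.938 for Nxpe2 (NTD embryo 3 lowest, at 5.29 against 6.29 to 6.83) and 0.850 for Doc2a (NTD embryo 2 lowest, at 4.95 against 5.34 to 5.54). It was 0.860 for Aldoc and 0.843 for Onecut2 among the control pools, where control pool 1 was highest and lowest, respectively. Nkx2-1, Fgfbp3, Nxpe2 and Doc2a were named because a single embryo lay apart, so these ratios partly repeat that choice.

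Among means over gene lists, the ratio was 0.934 for endothelium (NTD embryo 3 highest, 0.13 against -0.10 to -0.09), 0.866 for imprinted genes (NTD embryo 4 lowest, -0.33 against -0.10 to -0.07), 0.837 for lysosomal genes (NTD embryo 1 lowest) and 0.833 for macrophage genes (NTD embryo 2 highest, 0.47 against -0.53 to -0.37). NTD embryo 4, which stood apart in 3 of these, also had the lowest array weight, and its part in them was not tested.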

How the results depend on the processing

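Against 2 genes higher and 5 lower than in control pools, the counts were 1 and 17 with median scaling, 0 and 1 from the deposited value table, 1 and 1 with no filter on dim probes, 11 and 23 with all 12 arrays in 1 fit and 9 and 32 with array weights. The count of lower genes was 3 with an offset of 50, 3 with detection on all 8 arrays, 3 with an intensity trend and robust estimation and 2 with Kdm5d as a covariate, with 2 higher in each. Leaving out each sample in turn gave 0 to 11 higher and 1 to 39 lower. The cause of these moves was not tested. The counts stayed within 1.5 times with no background correction, normalization of the 8 arrays alone, detection on at least 4 of 12 arrays and every probe tested. All 7 genes were also called with all 12 arrays in 1 fit and with array weights, and 6 of 7 with median scaling. Alternatives were run for 30 genes, the 7 called among them, and none of these 30 changed sign. Of 22 alternatives, 6430411K18Rik was called in 22, Mir17hg in 15, H2bc4 in 14, Cln3 in 13 and Erich5 in 11, and of the 21 that tested them, Ccno in 11 and Spats2 in 7. Against diabetic pools, 0 genes passed in limma under every alternative. With the replicate block the counts were 0 higher and 1 lower. Deviations from the group mean correlated at 0.208, 0.006, 0.153 and 0.302 between control pools and NTD embryos of the same number. These values cannot decide whether samples of the same number shared a step, which the labels do not state. For Ccno and Spats2, signal over background limits the fold to a bound. The adjusted p of 6430411K18Rik ranged from 2.9e-05 to 0.00799 over the alternatives.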
